A study of Mus musculus with 8 samples.

Results

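The liver X receptors (LXRs) and their cholesterol and fatty acid target genes were followed in MH-S, a cell line of mouse alveolar macrophages. The genes were chosen by symbol from the deposited expression table: the receptor genes Nr1h2 and Nr1h3, the targets Abca1, Abcg1, Apoe, Mylip and Lpcat3, and the lipid synthesis genes Srebf1, Scd1 and Scd2. All 10 were in the table, out of 17518 genes, and 9 of them passed the filter on low counts, out of 11911 genes that did. Nr1h3 did not.

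LXRs are nuclear receptors that bind oxidised cholesterol derivatives and desmosterol, pair with a retinoid X receptor (RXR) and raise transcription of genes that rid the cell of cholesterol. In macrophages their best known targets encode the pumps that pass cholesterol to lipoproteins outside the cell. They also raise the master regulator of fatty acid synthesis and the desaturases that make monounsaturated fatty acids. Alveolar macrophages live in surfactant, which is rich in lipid, and cholesterol handling is central to their work.

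The study tested nanoparticles named RCMNs, described as responsive to reactive oxygen species and meant for imaging and treating acute lung injury. Polyadenylated RNA was sequenced from 8 libraries of MH-S cells with no genetic change named in the labels. In 3 libraries the cells had received lipopolysaccharide (LPS, from the outer membrane of Gram-negative bacteria, which activates macrophages) together with RCMNs, at 100 ng/mL LPS and 1 µg/mL RCMNs. In 2 libraries they had received LPS, for which no separate dose is stated, and in 3 control libraries phosphate-buffered saline. None of these groups received RCMNs without LPS, and no exposure time is stated. Nothing in the labels tells if the replicates of a group came from separate cultures, and p-values here measure the spread between these libraries, which may be technical.

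Libraries held 18.6 to 21.2 M (mega) counts. LPS+RCMNs replicate 2 and control replicate 1 were each far from the other libraries of their group: the chi-square statistic of their counts per degree of freedom was 37.5 to 45.1 against the other LPS+RCMNs libraries and 46.9 to 49.9 against the other controls, while it was 2.91 between LPS+RCMNs replicates 1 and 3 and 1.96 between control replicates 2 and 3. Between the 2 LPS libraries this statistic was 13.3. The macrophage genes Lyz2, Itgam, Csf1r and Cd68 led the macrophage marker list, of which 15 of 16 genes were in the table. Its summed level was 7111 to 8752 counts per M (CPM) in LPS+RCMNs, 6601 to 7831 CPM in LPS and 5327 to 6262 CPM in control libraries. The alveolar macrophage markers Siglecf, at 0.186 CPM or less in every library, Marco, at 1.32 CPM or less, and Car4, at 0 in every LPS+RCMNs and control library, were low. Other markers on that list that alveolar macrophages carry were higher: Fabp5 stood at 249 to 274 CPM in LPS+RCMNs, 488 to 502 CPM in LPS and 129 to 186 CPM in control libraries, and Fabp4 at 52.3 to 76.4 CPM in LPS+RCMNs, 89.4 to 98.4 CPM in LPS and 11.8 to 13.4 CPM in control libraries. Mrc1, the mannose receptor gene, stood at 119 to 133 CPM in LPS+RCMNs, 64.6 to 78.5 CPM in LPS and 235 to 301 CPM in control libraries. These marker levels thus differed between the groups, and their part in the results was not tested. The 2 LPS libraries carried red cell transcripts: the 7 erythroid markers, led by the globin gene Hbb-bs, summed to 0.658 to 34.1 CPM in LPS+RCMNs, 4359 to 5623 CPM in LPS and 0.867 to 20.7 CPM in control libraries. The 7 neutrophil markers in the table, out of 8 listed, summed to 0.245 to 0.709 CPM in LPS+RCMNs, 5.15 to 5.33 CPM in LPS and 0.0931 to 0.139 CPM in control libraries, with S100a9 at 0 in the LPS+RCMNs and control libraries. Lymphocyte and epithelial markers summed to at most 1.58 and 0.484 CPM in any library, and fibroblast and endothelial markers to between 4.78 and 12.2 CPM. Each comparison with LPS below therefore also sets libraries with red cell RNA against libraries with little of it, and the part of this in the results was not tested.

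Beta receptor transcript outnumbered alpha receptor transcript throughout. Per length, Nr1h2, which encodes LXR beta (chr7:44549616-44553968 in GRCm38.p6, the build of all positions here), stood at 13.9, 14.5 and 15.5 fragments per kilobase and M (FPKM) in LPS+RCMNs, 12.9 and 13.2 FPKM in LPS, and 19.7, 18.7 and 19.0 FPKM in control libraries. Nr1h3, which encodes LXR alpha (chr2:91184061-91202829), was at 0.030 to 0.10 FPKM in LPS+RCMNs, 0.12 to 0.14 FPKM in LPS and 0.080 to 0.15 FPKM in control libraries. Nr1h2 made up 98.9% to 99.8% of the summed FPKM of both receptor genes across the 8 libraries. The deposited counts behind Nr1h3, rounded, were 3, 1 and 1 in LPS+RCMNs, 5 and 4 in LPS, and 5, 3 and 3 in control libraries, at or next to the 3 counts used as a floor, so no difference in Nr1h3 was detectable at this depth. Annotated exons of Nr1h3 also overlap those of Gm13783 on the same strand.

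In counts, Nr1h2 was 26.2, 26.9 and 29.5 CPM in LPS+RCMNs, 32.7 and 33.0 CPM in LPS, and 34.4, 34.3 and 34.8 CPM in control libraries. The 3 groups did not overlap, with LPS+RCMNs lowest and control highest, within a narrow span. The log2 fold change was -0.25 ± 0.10 (SE) for LPS+RCMNs against LPS (adjusted p = 0.0492), the one fall among these genes in that comparison, and it passed in 7 of 19 alternative fits. It was lost without control replicate 2 or 3, LPS replicate 1 or 2, or LPS+RCMNs replicate 1. In FPKM the sign turned, at 0.15 on the log2(FPKM + 1) scale, and with the trend on length and level described below removed it was 0.05 (adjusted p = 0.732). Against control, Nr1h2 in LPS+RCMNs differed by -0.33 ± 0.09 (adjusted p = 0.0570, edgeR's quasi-likelihood test as for every adjusted p here unless another is named), and Nr1h2 in LPS by -0.07 ± 0.10 (adjusted p = 0.545).

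**Figure D1:**
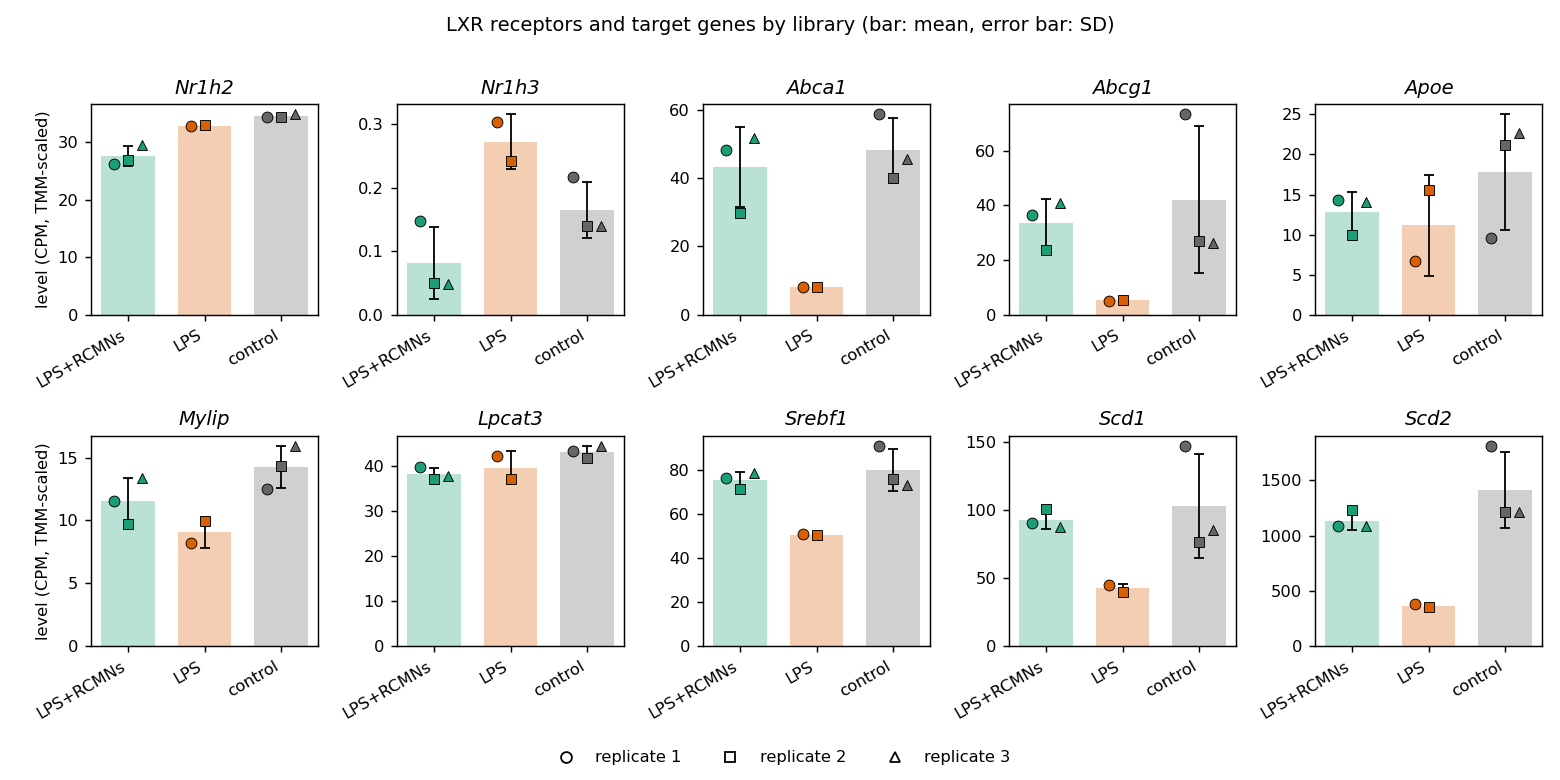
Level of each LXR gene in each library, in CPM scaled by TMM, with LPS+RCMNs left, LPS in the middle and control right. Bars are group means and error bars SD (n = 3, 2 and 3), points are libraries and their shape is the replicate number. Abca1, Abcg1, Srebf1, Scd1 and Scd2 in both LPS libraries lie below every other library. Over all tested genes 32.1% were called lower in LPS against control, and the share separated in this way was not counted. For Lpcat3 the LPS libraries overlap both other groups, while LPS+RCMNs lies below control.

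On the measured scale the cholesterol efflux pumps had the largest estimated fold changes of the 9 tested genes in both comparisons with LPS. With the trend on length and level described below removed, the estimates of Scd2 (1.27 for LPS+RCMNs against LPS and -1.71 for LPS against control) were at or beyond those of Abca1 (1.26 and -1.32). Abca1 (chr4:53030789-53159988) encodes the transporter that loads cholesterol and phospholipid onto lipid-poor apolipoprotein A-I. It stood at 48.3, 29.8 and 51.7 CPM in LPS+RCMNs libraries, 8.18 and 8.18 CPM in LPS libraries, and 58.6, 40.1 and 45.6 CPM in control libraries. Both LPS libraries were far below the other 6, and LPS+RCMNs and control libraries overlapped. Abca1 rose in LPS+RCMNs, at a mean 5.29-fold the level in LPS (log2 fold change 2.40 ± 0.27, adjusted p = 6.74e-05), and fell in LPS, to a mean 5.88-fold below control (log2 fold change -2.56 ± 0.27, adjusted p = 3.91e-05). Between LPS+RCMNs and control the difference was -0.15 ± 0.21 (adjusted p = 0.715). In a bulk measurement such as this, fewer expressing cells and less RNA per cell cannot be told apart.

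Abcg1 (chr17:31057694-31117984) encodes the transporter that passes cholesterol to mature high-density lipoprotein, and in mice its loss fills alveolar macrophages with lipid. It stood at 36.5, 23.9 and 40.7 CPM in LPS+RCMNs, 5.03 and 5.57 CPM in LPS, and 73.3, 27.1 and 26.2 CPM in control libraries. The LPS libraries were again below all others, and the control group spread widely because replicate 1 was 2.75 times the mean of the other controls. Abcg1 rose in LPS+RCMNs against LPS (log2 fold change 2.67 ± 0.51, adjusted p = 0.00152) and fell in LPS against control (-2.99 ± 0.51, adjusted p = 0.000732). Without LPS+RCMNs replicate 2 and control replicate 1 the first was 2.84 ± 0.11 and the second -2.27 ± 0.11. These 2 libraries were left out for their distance in these same data. In fits without them, SE and adjusted p thus measure the spread among libraries selected for closeness within LPS+RCMNs and control.

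The same 2 libraries decided how LPS+RCMNs compared with control. With all 8 libraries Abcg1 differed between LPS+RCMNs and control by -0.33 ± 0.38 (adjusted p = 0.665). Without them it was higher in LPS+RCMNs by 0.56 ± 0.09 (adjusted p = 0.000925), and Abca1 by 0.25 ± 0.08 (adjusted p = 0.0471). Both signs are opposite to those with all libraries, so neither direction held across the libraries used.

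Per length, Abcg1 exceeded Abca1 in every library, by an FPKM ratio of 1.33 to 1.41 in LPS+RCMNs, 1.10 and 1.20 in LPS, and 2.21, 1.19 and 1.01 in control libraries. Control replicate 1 had the highest ratio. The other 2 controls lay below the LPS+RCMNs libraries, in or just under the range of the LPS libraries. Over all libraries Abca1 spanned 0.620 to 6.50 FPKM and Abcg1 0.680 to 14.4 FPKM.

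Promoter sequence was examined for those of the 10 genes with an entry, moved or not, because LXR with RXR binds a pair of AGGTCA half-sites in the same direction separated by 4 bases (a DR4). In the RefSeq promoter table (GRCm38.p6) 7 had one, and Abcg1, Scd1 and Scd2 had none. Windows from 250 bases before to 50 bases after each annotated start were read on both strands, and mismatches were counted over the 12 half-site bases, with any base in the gap. The closest windows belonged to Abca1 and to start 3 of the 3 annotated for Srebf1, each with 3 mismatches on the strand opposite to the gene; the other genes' closest windows had 4, and that of Mylip 5. Of 32851 mouse promoters, 0.25% held a window with at most 1 mismatch, 3.02% at most 2 and 21.9% at most 3, so a match of this grade to AGGTCA half-sites is common. The mismatch count is only a description of these letters and cannot tell whether a window binds LXR, which was not tested. The 2 windows are shown because they are the closest matches among these genes; capitals mark the half-sites.

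Abca1: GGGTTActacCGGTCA
Srebf1: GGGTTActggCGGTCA

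The Abca1 window begins at position -67 relative to the start and the Srebf1 window at position -182. The 250 bases before each start are given 5′ to 3′ on the strand of the gene, which is the minus strand for both, with the matching window in capitals (where the half-sites therefore appear as their reverse complements). They lie at chr4:53159896-53160145 for Abca1 and chr11:60210472-60210721 for Srebf1.

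Abca1: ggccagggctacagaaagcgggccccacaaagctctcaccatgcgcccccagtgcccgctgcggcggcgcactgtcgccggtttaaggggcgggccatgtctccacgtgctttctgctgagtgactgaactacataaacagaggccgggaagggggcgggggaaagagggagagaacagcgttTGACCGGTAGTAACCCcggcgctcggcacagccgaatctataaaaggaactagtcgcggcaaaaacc
Srebf1: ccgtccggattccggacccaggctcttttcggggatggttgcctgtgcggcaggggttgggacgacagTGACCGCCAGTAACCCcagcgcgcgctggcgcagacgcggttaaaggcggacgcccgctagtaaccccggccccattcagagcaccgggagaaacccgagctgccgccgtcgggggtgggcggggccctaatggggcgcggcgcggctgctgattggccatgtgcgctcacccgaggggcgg

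The box CCAAT, searched on both strands with no mismatch, was found 3 times in the Mylip window, 4 times in that of Lpcat3, once each in those of Srebf1 starts 1 and 3, and in no other of these windows, against 37.4% of all promoters with at least 1.

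Apolipoprotein E and the remaining non-lipogenic targets had smaller estimates. Apoe (chr7:19696244-19701310) encodes the lipoprotein component that macrophages secrete as an acceptor for cholesterol. It stood at 14.4, 9.97 and 14.1 CPM in LPS+RCMNs, 6.72 and 15.6 CPM in LPS, and 9.54, 21.2 and 22.6 CPM in control libraries. The groups overlapped, and the 2 LPS libraries differed 2.32-fold, more than for any other of the 9 tested genes. No comparison passed the test: the log2 fold change was 0.20 ± 0.42 for LPS+RCMNs against LPS (adjusted p = 0.696), -0.67 ± 0.42 for LPS against control (adjusted p = 0.190) and -0.47 ± 0.37 for LPS+RCMNs against control (adjusted p = 0.492). Control replicate 1, which was high for Abcg1, was at 0.435 times the mean of the other controls for Apoe. Without LPS+RCMNs replicate 2 and that library, Apoe was lower in LPS than in control by -0.92 ± 0.26 on the log2 scale (adjusted p = 0.00757). That SE too rests on libraries selected for closeness.

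Mylip (chr13:45389742-45411940) encodes the ubiquitin ligase, also called IDOL, that marks lipoprotein receptors for degradation. Its levels were 11.6, 9.72 and 13.4 CPM in LPS+RCMNs, 8.18 and 9.94 CPM in LPS, and 12.5, 14.3 and 15.9 CPM in control libraries. LPS lay below control without overlap, and LPS+RCMNs overlapped both. Mylip fell in LPS against control (log2 fold change -0.65 ± 0.19, adjusted p = 0.0128), and the difference between LPS+RCMNs and LPS was 0.35 ± 0.19 (adjusted p = 0.132). The fall no longer passed without control replicate 3, without LPS replicate 1 or with the trend on length and level removed (-0.40 ± 0.18, adjusted p = 0.110).

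Lpcat3 (chr6:124663094-124704716) encodes the acyltransferase that puts polyunsaturated fatty acids into membrane phospholipids. It was 39.9, 37.1 and 37.8 CPM in LPS+RCMNs, 42.3 and 37.1 CPM in LPS, and 43.4, 41.9 and 44.4 CPM in control libraries. Its differences were -0.05 ± 0.10 for LPS+RCMNs against LPS (adjusted p = 0.656), -0.12 ± 0.10 for LPS against control (adjusted p = 0.310) and -0.18 ± 0.09 for LPS+RCMNs against control (adjusted p = 0.272), all log2 and none past the test. Exons of Lpcat3 overlap those of Emg1 on the opposite strand, and those of Srebf1 overlap Rai1 in the same way. Whether counting used strand is not given in the sources used here. It is therefore not known to which gene of a pair reads in the shared stretches were counted. The length of these stretches was not measured.

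The lipogenic targets changed in the direction of the pumps, with smaller estimates on the measured scale. Srebf1 (chr11:60199084-60224186) encodes SREBP1, whose c form is the transcription factor through which LXR drives fatty acid synthesis; the table gives 1 value per gene and does not separate its forms. It stood at 76.3, 71.5 and 78.7 CPM in LPS+RCMNs, 50.9 and 50.6 CPM in LPS, and 91.0, 76.1 and 73.1 CPM in control libraries. The LPS libraries were below the rest, and LPS+RCMNs and control libraries overlapped. Srebf1 rose in LPS+RCMNs against LPS (log2 fold change 0.57 ± 0.11, adjusted p = 0.00194) and fell in LPS against control (-0.66 ± 0.11, adjusted p = 0.000793). With the trend on length and level removed, neither passed (0.14 ± 0.11, adjusted p = 0.343, and -0.22 ± 0.11, adjusted p = 0.152).

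Scd1 (chr19:44394450-44407709) and Scd2 (chr19:44293676-44306864) are neighbouring genes for stearoyl-CoA desaturases, which make oleic and palmitoleic acid. Scd2 was the most abundant of the 10 genes per length in every library, at 212 to 242 FPKM in LPS+RCMNs, 54.7 and 52.4 FPKM in LPS, and 245 to 380 FPKM in control libraries, and gave 63.8% to 79.9% of the summed CPM of the 10 genes. It stood at 1092, 1232 and 1087 CPM in LPS+RCMNs, 379.9 and 353 CPM in LPS, and 1812, 1212 and 1218 CPM in control libraries. The LPS libraries were again below the other 6, and LPS+RCMNs overlapped control. Scd2 rose in LPS+RCMNs, to a mean 3.10-fold the level in LPS (log2 fold change 1.63 ± 0.18, adjusted p = 6.36e-05), and fell in LPS, to a mean 3.86-fold below control (-1.95 ± 0.18, adjusted p = 2.06e-05).

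Scd1 was 90.6, 101 and 87.4 CPM in LPS+RCMNs, 44.9 and 40.3 CPM in LPS, and 147, 77.0 and 85.4 CPM in control libraries. Again both LPS libraries were below the other 6. Scd1 rose in LPS+RCMNs against LPS (log2 fold change 1.13 ± 0.25, adjusted p = 0.00385) and fell in LPS against control (-1.28 ± 0.25, adjusted p = 0.00180), and the rise no longer passed without LPS replicate 2. Per length, Scd2 exceeded Scd1 by 10.68 to 11.02 times in LPS+RCMNs, 7.51 and 7.77 times in LPS, and 10.9 to 13.9 times in control libraries, so the ratio was lowest in the LPS libraries. The transcripts share little sequence: 3.03% of 50-base windows of Scd1 occur in Scd2 and 2.68% the other way.

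**Figure D2:**
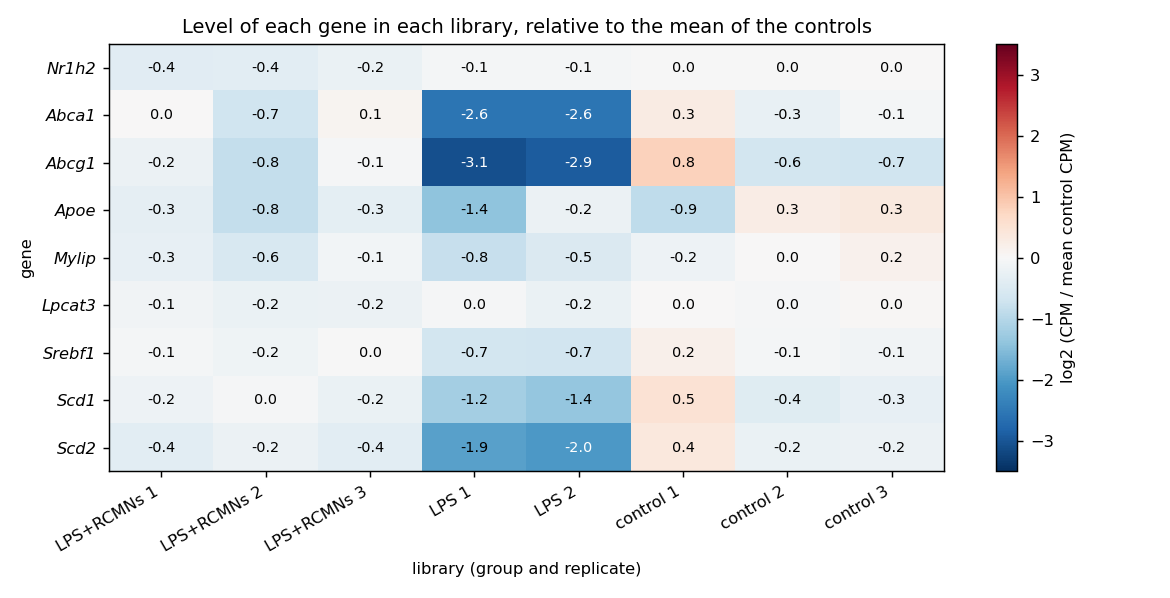
Log2 ratio of each library's CPM to the mean control CPM for the 9 tested genes (rows), with libraries in columns, LPS+RCMNs left, LPS in the middle and control right, and the value printed in each cell. Abca1, Abcg1 and Scd2 are darkest in both LPS columns, next to them Apoe (-1.40) in that of replicate 1 and Scd1 (-1.36) in that of replicate 2, and control replicate 1 is above the other controls for Abcg1, Scd1 and Scd2 and below them for Apoe.

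Counted together, 5 of the 9 tested genes rose in LPS+RCMNs against LPS (Abca1, Abcg1, Srebf1, Scd1 and Scd2), 1 fell (Nr1h2) and 3 did not pass. Over all 11911 tested genes 59.3% were called in that comparison, 29.8% higher and 29.5% lower, so 6 of 9 is close to the background share. The median log2 fold change of the 9 was 0.57, against 0.04 over all tested genes. In LPS against control 6 of the 9 fell (Abca1, Abcg1, Mylip, Srebf1, Scd1 and Scd2) and none rose, where 63.4% of all genes were called, 32.1% lower and 31.4% higher. Their median was -0.67, against -0.04 over all tested genes. The share of all genes whose LPS libraries lay below every other library was not counted. Both comparisons use the same 2 LPS libraries, so the rise in one and the fall in the other are not independent.

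In LPS+RCMNs against control 0 of the 9 genes were called with edgeR's quasi-likelihood test, where 7.56% of all genes were, 4.33% higher and 3.23% lower. At an unadjusted p below 0.05 the count was 1, Nr1h2, and DESeq2 and limma each called 1 of the 9, also Nr1h2 (adjusted p = 0.0264 and 0.0270). The median of the 9 was -0.30. Without LPS+RCMNs replicate 2 and control replicate 1, 3 were called: Abca1 and Abcg1 higher and Nr1h2 lower (-0.29 ± 0.08, adjusted p = 0.0261). In that fit 25.5% of all genes were called, 14.8% higher and 10.6% lower, and the 3 of 9 are to be read against those shares. Adjusted p values that miss the threshold do not show that LPS+RCMNs and control levels were alike, and for Abcg1 and Apoe the SE alone was 0.38 and 0.37.

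**Figure D3:**
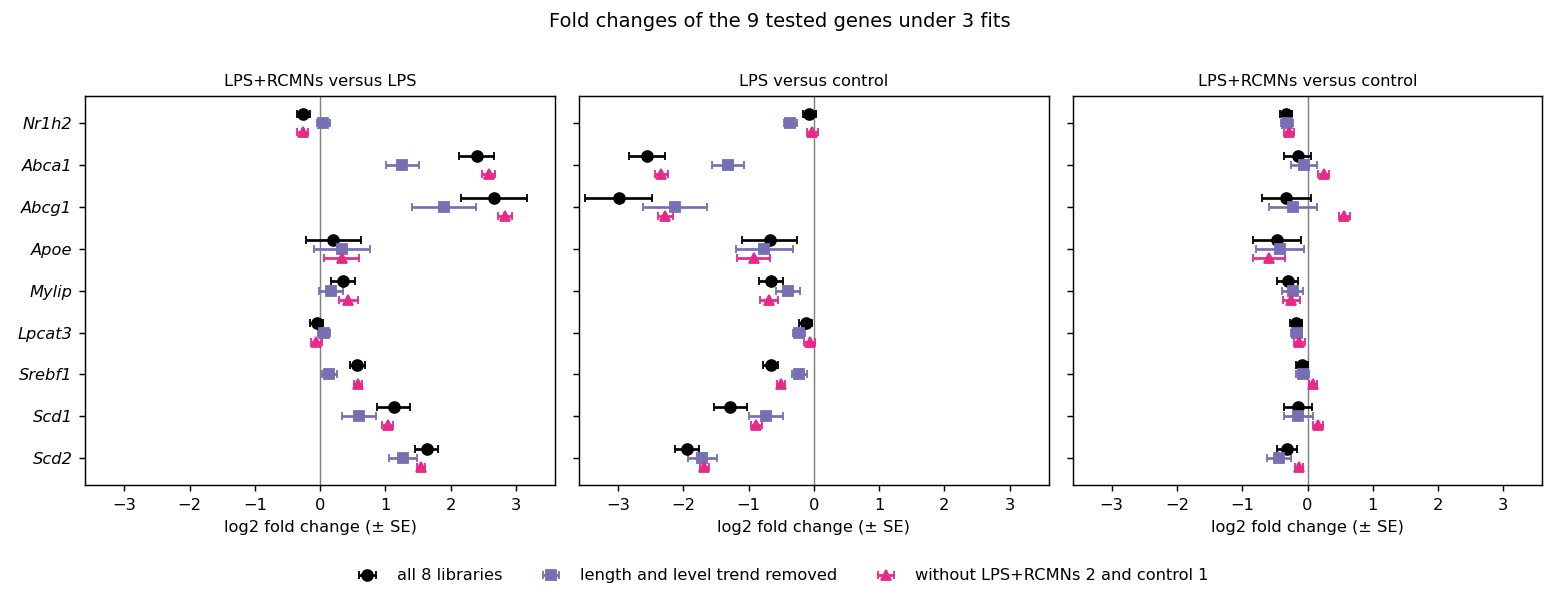
Log2 fold change (horizontal axis, error bars SE) of the 9 tested genes in the 3 comparisons under 3 fits: all 8 libraries (circles), with a smooth trend on gene length and level removed (squares), and without LPS+RCMNs 2 and control 1 (triangles). Abca1, Abcg1 and Scd2 stay on one side of 0 in both comparisons with LPS under each of the 3 fits, while for Abca1 and Abcg1 the triangles cross to the right of 0 in LPS+RCMNs versus control.

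The LPS libraries differed from the others in a way that followed gene length. Across 11910 genes with a length implied by their counts and FPKM, the rank correlation of log2 fold change with length was 0.592 for LPS+RCMNs against LPS, -0.584 for LPS against control and -0.088 for LPS+RCMNs against control, as a description over genes that share libraries. In the shortest of 10 equal bins of genes by length the median level of the LPS libraries was 1.22 and 1.24 above the control mean on the log2 scale, and in the longest bin -1.03 and -0.94. Abca1, at an implied 10190 bases, is in the longest bin, where the median log2 fold change was 0.94 for LPS+RCMNs against LPS and -0.99 for LPS against control. Abcg1, Scd2 and Scd1, at 5771, 5404 and 4788 bases, are in the bin below, with medians of 0.68 and -0.72. Nr1h2 and Apoe, at 1993 and 2140 bases, are in a bin whose medians, -0.23 and 0.25, lie on the other side of 0. The 5 longest of the 9 genes are the 5 that rose in LPS+RCMNs against LPS.

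Once each library's smooth trend on length and mean level was removed, differences shrank and part of the calls stayed. Abca1 was then higher in LPS+RCMNs than in LPS by 1.26 ± 0.25 on the log2 scale (adjusted p = 0.00436) and lower in LPS than in control by -1.32 ± 0.25 (adjusted p = 0.00297). Abcg1 differed by 1.91 ± 0.49 (adjusted p = 0.0143) and -2.13 ± 0.49 (adjusted p = 0.00778), and Scd2 by 1.27 ± 0.21 (adjusted p = 0.00207) and -1.71 ± 0.22 (adjusted p = 0.000421). Scd1 fell in LPS against control (-0.74 ± 0.26, adjusted p = 0.0482) but did not pass in LPS+RCMNs against LPS (0.59 ± 0.26, adjusted p = 0.103). With the trend on length alone removed, the fall of Scd1 did not pass either (-0.67, adjusted p = 0.0588). Nr1h2, which had not passed in LPS against control with all genes on their measured scale, fell in this fit (-0.36 ± 0.10, adjusted p = 0.0180). In all, 3 of the 9 rose in LPS+RCMNs against LPS, where 38.4% of all genes were called in this fit and 19.4% were higher. In LPS against control 5 of the 9 fell, where 42.8% of all genes were called and 21.3% were lower.

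**Figure D4:**
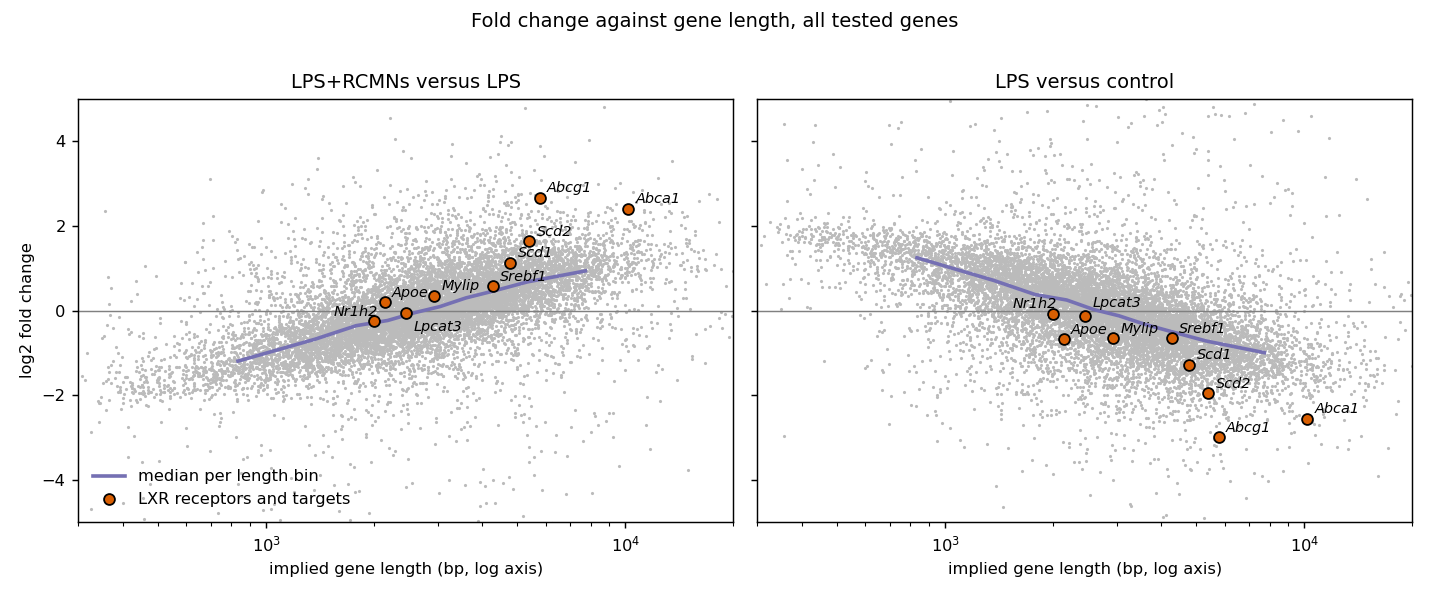
Log2 fold change of every tested gene (grey points) against its implied length on a log axis, for LPS+RCMNs versus LPS on the left and LPS versus control on the right, with the median per length bin as a line and the LXR genes as orange points. Abca1, Abcg1, Scd1 and Scd2 lie farther from 0 than the median of their length bin in both panels; 104 and 138 genes fall outside the axes.

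The library profile of Abca1 was compared with every gene of at least 1 CPM on average. By the root mean square difference in log2 CPM centred on the control mean, over 8 libraries and 10845 genes, the nearest were Cd28 at 0.106, Acox3 at 0.108, Ksr2 at 0.167, Arrb1 at 0.169 and Pax3 at 0.179. Their mean levels were 163, 32.4, 3.39, 97.05 and 11.9 CPM in LPS+RCMNs, 33.8, 6.87, 0.333, 22.02 and 1.88 CPM in LPS, and 185, 39.1, 3.603, 121 and 12.6 CPM in control, in the same gene order. Among the LXR genes Abcg1 was nearest at rank 46 (0.319), then Scd2 at rank 116 (0.392) and Scd1 at rank 933 (0.696).

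Of 20 other genes described as LXR targets, 17 were tested: 8 rose and 0 fell in LPS+RCMNs against LPS (median log2 fold change 0.56), 0 rose and 9 fell in LPS against control (median -0.42), and 1 rose and 2 fell in LPS+RCMNs against control (median -0.01). Over all tested genes 59.3%, 63.4% and 7.56% were called in these 3 comparisons, in that order. Shares higher were 29.8%, 31.4% and 4.33%, and shares lower 29.5%, 32.1% and 3.23%. Counts of this list and of the later lists are to be read against those shares. With the trend removed, 6 rose and 1 fell in LPS+RCMNs against LPS, where 38.4% of all genes were called. Mertk, the receptor for engulfing apoptotic cells, stood at 4.30 to 10.9 CPM in LPS+RCMNs, 0.545 to 0.727 CPM in LPS and 10.2 to 11.4 CPM in control libraries. It rose in LPS+RCMNs against LPS (3.69 ± 0.46, adjusted p = 0.000123) and fell in LPS against control (-4.07 ± 0.46, adjusted p = 5.65e-05), with 3.17 and -3.44 once the trend was removed. Arl4c, a small GTPase gene, rose in LPS+RCMNs against LPS (1.22 ± 0.19, adjusted p = 0.000507) and fell both in LPS (-2.04 ± 0.20, adjusted p = 2.35e-05) and in LPS+RCMNs (-0.82 ± 0.16, adjusted p = 0.0171) against control.

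Apoc2, the cofactor of lipoprotein lipase, was 1.54 CPM in LPS+RCMNs, 1.15 CPM in LPS and 3.15 CPM in control on average, and fell against control in LPS+RCMNs (-1.03 ± 0.25, adjusted p = 0.0426) and in LPS (-1.45 ± 0.31, adjusted p = 0.00264). Cd38, an NAD-consuming enzyme, was the one that rose in LPS+RCMNs against control (0.84 ± 0.22, adjusted p = 0.0497). Acaca, the first enzyme of fatty acid synthesis, rose in LPS+RCMNs against LPS (0.93 ± 0.13, adjusted p = 0.000263) and fell in LPS against control (-0.85 ± 0.13, adjusted p = 0.000387), with both signs turned once the trend was removed (-0.08 and 0.18). Lpl, lipoprotein lipase, averaged 4228 CPM in LPS+RCMNs, 2378 CPM in LPS and 3191 CPM in control and passed in no comparison with all 8 libraries. Without LPS+RCMNs replicate 2 and control replicate 1 it was higher in LPS+RCMNs than in LPS (0.93 ± 0.07, adjusted p = 3.70e-07) and lower in LPS than in control (-0.75 ± 0.07, adjusted p = 1.92e-06). With all 8 libraries the SE was 0.41 in both comparisons, and the smaller SE rests on libraries selected for closeness. Pltp, a phospholipid transfer protein, was at 0.673 CPM or less in every library and was not tested.

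The partners and coregulators of LXR were mostly long genes. Of 15 tested, 10 rose and 2 fell in LPS+RCMNs against LPS (median 0.94) and 1 rose and 11 fell in LPS against control (median -0.98). With the trend removed, 3 rose and 1 fell in the first comparison (median 0.05), where 38.4% of all genes were called and 19.4% were higher. In the second 0 rose and 6 fell (median -0.23), where 42.8% of all genes were called and 21.3% were lower. Rxra, the RXR alpha partner, averaged 43.9 CPM in LPS+RCMNs, 20.8 CPM in LPS and 40.9 CPM in control. It rose in LPS+RCMNs against LPS (1.08 ± 0.20, adjusted p = 0.00120) and fell in LPS against control (-0.98 ± 0.20, adjusted p = 0.00193), and neither passed with the trend removed (0.50 and -0.34). Rxrb was the one gene of the list that changed in LPS+RCMNs against control (-0.52 ± 0.13, adjusted p = 0.0460).

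The coactivator gene Ncoa1 rose in LPS+RCMNs against LPS by 1.96 ± 0.11 (adjusted p = 1.94e-06) and fell in LPS against control by 2.04 on the log2 scale (adjusted p = 1.30e-06), and Tbl1xr1, of the corepressor complex, by 1.80 ± 0.18 (adjusted p = 3.39e-05) and -1.96 ± 0.18 (adjusted p = 1.70e-05). Both passed in both comparisons with the trend removed, at 1.05 and -1.03 for Ncoa1 and 0.86 and -0.97 for Tbl1xr1. Ncoa2, another coactivator, rose by 1.36 ± 0.12 and fell by 1.57, and only its fall in LPS passed with the trend removed (-0.45, adjusted p = 0.0287). The corepressor gene Ncor1 rose by 0.64 ± 0.09 in LPS+RCMNs against LPS (adjusted p = 0.000248) and fell in LPS against control (-0.79 ± 0.09, adjusted p = 5.76e-05), with both signs turned once the trend was removed (-0.26 and 0.12).

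Of 8 listed enzymes that make or remove LXR ligands, 4 were tested: 2 rose and 1 fell in LPS+RCMNs against LPS (median 0.64), 1 rose and 2 fell in LPS against control (median -1.01), and 0 of the 4 passed in LPS+RCMNs against control with edgeR's quasi-likelihood test (median -0.18). Cyp27a1, which makes 27-hydroxycholesterol, averaged 14.5 CPM in LPS+RCMNs, 6.15 CPM in LPS and 16.6 CPM in control. It rose in LPS+RCMNs against LPS (1.24 ± 0.22, adjusted p = 0.00108) and fell in LPS against control (-1.44 ± 0.22, adjusted p = 0.000410), and passed with the trend removed (1.46 and -1.60). Hsd3b7, of bile acid synthesis, did the same (1.06 ± 0.34, adjusted p = 0.0216, and -1.22 ± 0.34, adjusted p = 0.0104).

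Sult2b1, a sterol sulfotransferase, went the other way: it fell in LPS+RCMNs against LPS (-1.002 ± 0.26, adjusted p = 0.00803) and rose in LPS against control (1.32 ± 0.26, adjusted p = 0.00171). With the trend removed the fall did not pass (-0.43, adjusted p = 0.213) and the rise did (0.76, adjusted p = 0.0416). Ch25h, which makes 25-hydroxycholesterol, had no count in LPS+RCMNs libraries and reached 0.242 CPM in LPS and 0.0433 CPM in control libraries, near the floor of 0.130 to 0.182 CPM, so it could not be compared at this depth.

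**Figure D5:**
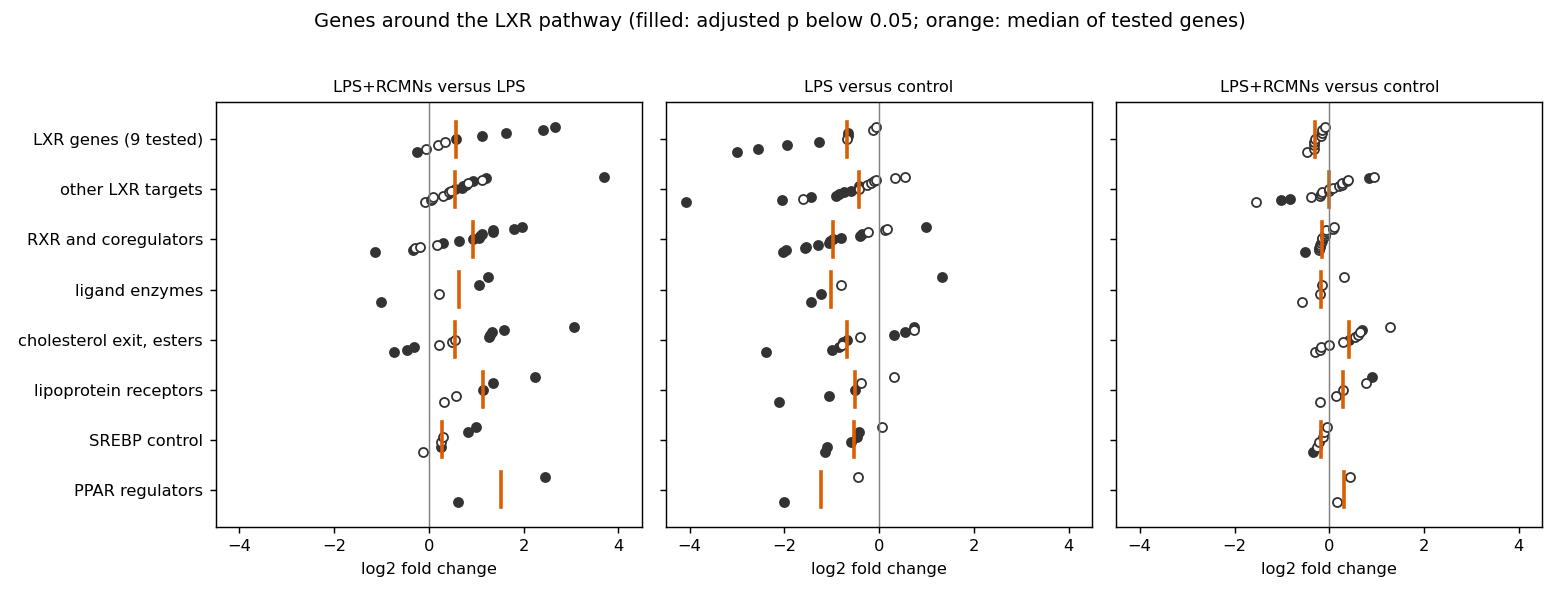
Log2 fold change of each tested gene of the LXR set and of 7 lists around it, for LPS+RCMNs versus LPS, LPS versus control and LPS+RCMNs versus control from left to right. Filled points passed an adjusted p of 0.05, open points did not, and the orange line is the median of the tested genes of the list; medians lie above 0 for every list on the left and below 0 for every list in the middle.

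Of 11 genes for cholesterol exit from lysosomes and for turnover of cholesteryl esters, 5 rose and 3 fell in LPS+RCMNs against LPS (median 0.55), 3 rose and 5 fell in LPS against control (median -0.68), and 2 rose in LPS+RCMNs against control (median 0.41). Nceh1, a cholesteryl ester hydrolase, averaged 215 CPM in LPS+RCMNs, 25.6 CPM in LPS and 134 CPM in control. It rose in LPS+RCMNs against LPS (3.07 ± 0.19, adjusted p = 3.45e-06), fell in LPS against control (-2.39 ± 0.19, adjusted p = 8.10e-06) and rose in LPS+RCMNs against control (0.68 ± 0.15, adjusted p = 0.0277). All 3 passed with the trend removed. Soat1, which esterifies cholesterol for storage, averaged 492 CPM in LPS+RCMNs, 205 CPM in LPS and 370 CPM in control, and rose in LPS+RCMNs against LPS (1.26 ± 0.12, adjusted p = 2.26e-05) and against control (0.41 ± 0.10, adjusted p = 0.0393), the second not with the trend removed (adjusted p = 0.103).

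Npc1, the lysosomal cholesterol exporter, rose in LPS+RCMNs against LPS (1.60 ± 0.22, adjusted p = 0.000202) and fell in LPS against control (-0.99 ± 0.21, adjusted p = 0.00272), with 0.61 ± 0.18 between LPS+RCMNs and control (adjusted p = 0.0799). Its fall in LPS did not pass with the trend removed (-0.38, adjusted p = 0.161). Lipa, the lysosomal acid lipase, also rose and fell in those comparisons (1.29 ± 0.27, adjusted p = 0.00240, and -0.75 ± 0.26, adjusted p = 0.0298). Gramd1b, a sterol transfer protein, rose in LPS+RCMNs against LPS (1.33 ± 0.22, adjusted p = 0.000755) and fell in LPS against control (-0.68 ± 0.22, adjusted p = 0.0226). With the trend removed the rise did not pass (0.49, adjusted p = 0.0764) and the sign of the fall turned (0.18).

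Of 5 tested lipoprotein receptors, 3 rose and 0 fell in LPS+RCMNs against LPS (median 1.15), 0 rose and 3 fell in LPS against control (median -0.50), and 1 rose in LPS+RCMNs against control (median 0.28). Scarb1, a receptor for high-density lipoprotein, averaged 119 CPM in LPS+RCMNs, 95.6 CPM in LPS and 136 CPM in control, and fell in LPS against control (-0.50 ± 0.13, adjusted p = 0.00667). Lrp1, a large endocytic receptor, rose in LPS+RCMNs against LPS (2.24 ± 0.27, adjusted p = 9.44e-05), fell in LPS against control (-2.11 ± 0.26, adjusted p = 0.000112) and passed with the trend removed (1.088 and -1.002).

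Lrp8, a receptor for apolipoprotein E, rose in LPS+RCMNs against LPS (1.34 ± 0.25, adjusted p = 0.00133) and fell in LPS against control (-1.06 ± 0.25, adjusted p = 0.00435), neither with the trend removed. The scavenger receptor Msr1 rose in LPS+RCMNs against control (0.91 ± 0.21, adjusted p = 0.0351), and Cd36, another, in LPS+RCMNs against LPS (1.15 ± 0.38, adjusted p = 0.0266).

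Of 6 tested genes that control SREBP, including Srebf2, 3 rose and 0 fell in LPS+RCMNs against LPS (median 0.28), 0 rose and 5 fell in LPS against control (median -0.53), and 1 fell in LPS+RCMNs against control (median -0.17). The one was Insig1, which holds SREBP in the endoplasmic reticulum when sterol is high: it averaged 191 CPM in LPS+RCMNs, 160 CPM in LPS and 243 CPM in control, with log2 fold changes of 0.25 ± 0.09 for LPS+RCMNs against LPS (adjusted p = 0.0328), -0.60 ± 0.09 for LPS against control (adjusted p = 0.000308) and -0.35 ± 0.08 for LPS+RCMNs against control (adjusted p = 0.0298). Mbtps2 and Mbtps1, the proteases that cut SREBP, rose by 0.99 ± 0.13 and 0.84 ± 0.10 in LPS+RCMNs against LPS and fell in LPS against control (-1.13 ± 0.13 and -1.10 ± 0.10), and each passed with the trend removed. Srebf2, which encodes the factor for cholesterol synthesis, fell in LPS against control (-0.47 ± 0.11, adjusted p = 0.00424), not with the trend removed (-0.10, adjusted p = 0.489).

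Among the peroxisome proliferator-activated receptor (PPAR) genes, which act beside LXR in macrophage lipid handling, Pparg was at 0.506 CPM or less in every library and was not tested. Ppard rose in LPS+RCMNs against LPS (0.61 ± 0.21, adjusted p = 0.0309), not with the trend removed (0.38, adjusted p = 0.159). The coactivator gene Ppargc1b rose in LPS+RCMNs against LPS (2.45 ± 0.19, adjusted p = 9.14e-06) and fell in LPS against control (-2.00 ± 0.19, adjusted p = 1.93e-05), both also with the trend removed (1.37 and -0.79).

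Counts over these lists also moved with the fit. Without LPS+RCMNs replicate 2 and control replicate 1, when 25.5% of all genes were called in LPS+RCMNs against control, 7 of the 11 genes of cholesterol exit and esters rose and 1 fell in that comparison (median 0.58). Of the 17 other LXR targets 4 rose and 4 fell, of the 15 partners and coregulators 1 rose and 2 fell, of the 4 ligand enzymes 0 rose and 1 fell, of the 5 lipoprotein receptors 2 rose, of the 6 SREBP genes 2 fell, and of the 2 PPAR genes tested both rose. With the trend removed, 2 of the 11 genes of cholesterol exit and esters rose and 3 fell in LPS against control (median -0.13). Of the 17 other LXR targets 2 rose and 6 fell in that fit and comparison. Over all genes 42.8% were called there and 21.3% were lower.

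Each call named above for a gene outside the 10 in LPS+RCMNs against control was lost when at least 1 library was left out. Those of Apoc2 and Rxrb were lost when any 1 of the 8 libraries was left out, and that of Insig1 when any but LPS+RCMNs replicate 2 was. Those of Cd38, Nceh1 and Soat1 were lost without any 1 library other than LPS+RCMNs replicate 2 and control replicate 1. That of Msr1 was lost without LPS+RCMNs replicate 1 or 3 or either LPS library, and that of Arl4c without LPS+RCMNs replicate 1.

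In LPS+RCMNs against LPS the rises of Hsd3b7, Cd36 and Ppard were lost without either LPS library or without LPS+RCMNs replicate 1 or 3, that of Insig1 without any 1 library other than control replicate 1, and the fall of Sult2b1 without LPS replicate 2. In LPS against control the falls of Lipa and Gramd1b were lost without either LPS library or without control replicate 2 or 3. Those of Hsd3b7 and Lrp8 were lost without LPS replicate 1, and those of Scarb1 and Srebf2 without LPS replicate 2.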

How the data were processed

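RNA sequencing covered 8 libraries. TRIzol extraction, oligo(dT) bead selection and a BGI library kit were used, per the labels' protocols. The authors deposited an estimated count (expected count) per gene and library, headed read count, made by an aligner and counter not given in the sources used here, and an FPKM value, per the file headers. Of counts over 0, 77.8% lay farther than 0.001 from a whole number. Per the submitters' processing notes the build is mm10, and per the series' design text FastQC was run. A further 4 per-sample columns matched no sample and were not used.

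Rounded counts passed filterByExpr, were scaled with TMM and were tested over all 11911 genes with the quasi-likelihood F test of edgeR (version 4.0.16, R 4.3.3) with the 8 libraries in 3 groups. A gene was called at an adjusted p (Benjamini-Hochberg) below 0.05. CPM is the rounded count per M (mega) of library size after TMM scaling; TMM factors were 0.779 and 0.803 in LPS and 1.05 to 1.13 in other libraries, and 3 counts, the floor, are 0.130 to 0.182 CPM, counting error only. Length is implied by counts and FPKM. Trends on length, or on length and mean level, were loess fits (span 0.4) per library, used as offsets. The procedure was tested on simulated data in which far fewer genes changed than were called here in the comparisons with LPS. That test therefore cannot tell how the procedure behaves when most genes change.

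Gene positions, exon overlaps and promoters are RefSeq and GENCODE annotation of GRCm38.p6, for which 17468 of 17518 gene IDs matched. Members, lists and tests were chosen with earlier results of these data known. Genes named outside the 10 are, per list and comparison, up to 3 called genes with the largest change and a mean FPKM of at least 1, and 14 fixed genes; markers and the 5 genes nearest to Abca1 are also named. Results for a few further genes of the lists are not reported here and are left out of the lists' counts. The alternatives were the groups compared alone, a replicate block, each library left out, both libraries that stood apart left out, median-ratio size factors, no low-count filter, an FPKM of at least 5 in 2 libraries, DESeq2 1.42.0, limma 3.58.1 on log2(FPKM + 1), a robust prior, both trends, and a minimum absolute log2 fold change of 1.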

Additional observations from a re-analysis of the deposited data

How the results depend on the processing

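Of 513 fold changes of the 9 tested genes under the alternatives, 463 kept their direction and side of the threshold, 20 no longer passed, 12 came to pass and 18 turned sign; over all named genes the counts were 2010, 151, 67 and 40 of 2268. Falls in LPS of Abca1, Abcg1 and Scd2 and their rises in LPS+RCMNs against LPS passed in all 19 alternatives of each. Of the 9 genes, those called in LPS+RCMNs against LPS dropped to 3 with a trend on length or on length and level removed, and those in LPS+RCMNs against control numbered 3 without the 2 libraries that stood apart and 1 each with DESeq2 and limma. Over all genes, calls in LPS+RCMNs against LPS numbered 4577 with the trend on length and level removed and 3162 at an absolute log2 fold change of at least 1, and in LPS against control 3619 at that minimum. In LPS+RCMNs against control they numbered 599 with only the groups compared, 1379 with DESeq2, 314 at the fold minimum, 3017 without the 2 libraries that stood apart and 322 to 1372 with 1 library left out, against 901. Leaving out an LPS library leaves 1, assumed to vary like the other groups.

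Signs turned in LPS+RCMNs against LPS for Acaca (-0.091 with the length trend removed, -0.079 with length and level), Ncor1 (-0.29 and -0.26), Srebf2 (-0.286 and -0.155), Nr1h2 (0.037, 0.047 and, with limma, 0.15), Lpcat3 (0.046, 0.064 and, with limma, 0.34) and Rxrb (0.116 with limma). They turned in LPS against control for Acaca (0.24 and 0.18), Gramd1b (0.27 and 0.18), Ncor1 (0.21 and 0.12), Srebf2 (0.12 with length) and Lpl (0.007 with length). In LPS+RCMNs against control they turned without the 2 libraries that stood apart for Abca1 (0.25), Abcg1 (0.56), Cyp27a1 (0.131), Hsd3b7 (0.181), Scd1 (0.160) and Srebf1 (0.083), and with length and level removed for Ncoa1 (0.020). With 1 library left out, estimates ranged across 0 in LPS+RCMNs against LPS for Apoe (-0.295 to 0.899) and Lpcat3 (-0.179 to 0.027), and in LPS against control for Lpcat3 (-0.180 to 0.026). In LPS+RCMNs against control they did so for Abca1 (-0.278 to 0.075), Abcg1 (-0.559 to 0.368), Hsd3b7 (-0.354 to 0.157), Lrp1 (-0.043 to 0.320), Scd1 (-0.306 to 0.223), Srebf1 (-0.128 to 0.046) and Tbl1xr1 (-0.223 to 0.035), and for Ncoa1 they reached 0 (-0.092 to 0.000). The limma fit is on FPKM without TMM scaling, where the median over all genes was 0.27 for LPS+RCMNs against LPS and -0.33 for LPS against control. The cause of the other changes was not tested. Deviations of same-numbered libraries from their group means correlated between -0.34 and 0.20. Those of the 2 LPS libraries are mirror images (r = -1), and the libraries that stood apart weigh on the other groups. These correlations therefore cannot decide whether replicate numbers pair the libraries. With the replicate block, 6184, 6778 and 454 genes and 5, 6 and 0 of the 9 were called in LPS+RCMNs against LPS, LPS against control and LPS+RCMNs against control. Other pseudocounts, planned only in case the table held no counts, were not run.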
